A study of Mus musculus with 6 samples.

Results

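The genes described here are 10 genes of the antioxidant response run by the transcription factor NRF2. They are Nfe2l2, which encodes NRF2, Keap1, which encodes its inhibitor, and the target genes Hmox1, Nqo1, Gclc, Gclm, Txnrd1, Srxn1, Me1 and Osgin1. They were taken by symbol from a table of 22740 protein-coding genes, all 10 were found once each, and all 10 had enough counts to be tested. RNA was sequenced from cultures of B16, a mouse melanoma line that the series' design text calls B16-F10, after 3 days with 1 uM CX-5461 or with DMSO, the solvent. CX-5461 is a small molecule known to block transcription by RNA polymerase I and to trap topoisomerase II on DNA. There were 3 CX-5461 libraries and 3 DMSO libraries, all of 1 line labelled BRAFV600E-negative and grown in the same serum-containing medium. The labels do not say whether replicates came from separate cultures, so the p-values measure the spread between these libraries, which may be technical.

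In resting cells KEAP1, an adaptor of a CUL3 ubiquitin ligase, holds NRF2 and has it degraded. Oxidants and electrophiles modify cysteines of KEAP1, NRF2 then builds up, pairs with a small MAF protein and binds antioxidant response elements near its target genes. NRF2 activity is therefore set mostly at the protein level, which RNA counts do not show. The targets make glutathione, reduce thioredoxin and peroxiredoxins, supply NADPH and break down heme. In pigment cells the response is known for handling the peroxides and quinones that arise in melanin synthesis.

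Library totals were 17877481 to 22908309 counts with CX-5461 and 17573990 to 20198979 with DMSO. Levels are given in CPM, the counts of a gene per 1000000 counts of its library, scaled by edgeR's TMM factors. Called means an adjusted p below 0.05 in edgeR's quasi-likelihood test over 12198 genes. CX-5461 replicate 2 lay apart from the other libraries of its group on principal component 2, which held 2.62% of the variance, and the changes, counts of calls, mean ratios and level orders of the 10 genes and the lists below were also computed without it. The 7 melanocyte markers summed to 28250 to 30560 CPM with CX-5461 and 22080 to 22930 CPM with DMSO. All 7 were called higher (37.2% of all tested genes were), from Pmel at 1.11-fold to Mitf at 4.53-fold. Of 7 macrophage markers in the table, Marco, Cd163 and Itgam had no count in any library, Ptprc and Csf1r averaged at most 0.105 CPM in either group, and the list summed to 15.6 to 17.7 CPM with CX-5461 and 11.2 to 12.0 CPM with DMSO. Most of that sum was Cd68, which did not pass, while Lyz2 was called higher, at 4.20 ± 0.916 CPM with CX-5461 and 0.871 ± 0.561 CPM with DMSO (SD, n = 3 each, adjusted p = 9.992e-06). The 6 fibroblast markers summed to 30.9 to 34.4 CPM with CX-5461 and 12.5 to 16.5 CPM with DMSO. Among them the collagen gene Col1a2 was called higher, at 25.1 ± 1.34 CPM with CX-5461 and 2.22 ± 0.552 CPM with DMSO, Col1a1 was called lower, Pdgfra passed narrowly as lower (adjusted p = 0.04416), Col3a1 had no count, and Dcn and Lum had at most 3 counts in a library. The part of these markers in the results was not tested.

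With CX-5461 these 10 antioxidant genes were mostly lower, and of them heme oxygenase Hmox1 fell furthest. Of the 10 genes 9 were called (73.7% of all tested genes were), 8 of them lower (36.5% of all tested genes) and 1 higher (37.2%), and Keap1 did not pass. The genes that fell were Nfe2l2, Hmox1, Nqo1, Gclc, Gclm, Txnrd1, Srxn1 and Osgin1, and the gene that rose was Me1. The median log2 change of the 10 was -0.41, and -0.37 without Hmox1, whereas that of all tested genes was -0.005. The libraries of the groups did not overlap for 8 of the 10 genes (76.2% of all tested genes), 7 of them lower with CX-5461 (37.9%) and 1 higher (38.2%). A lower level in these bulk cultures can be fewer expressing cells or less RNA per cell. CPM are relative to the rest of the library, so it can also be a rise of other transcripts. These cannot be told apart.

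**Figure D1:**
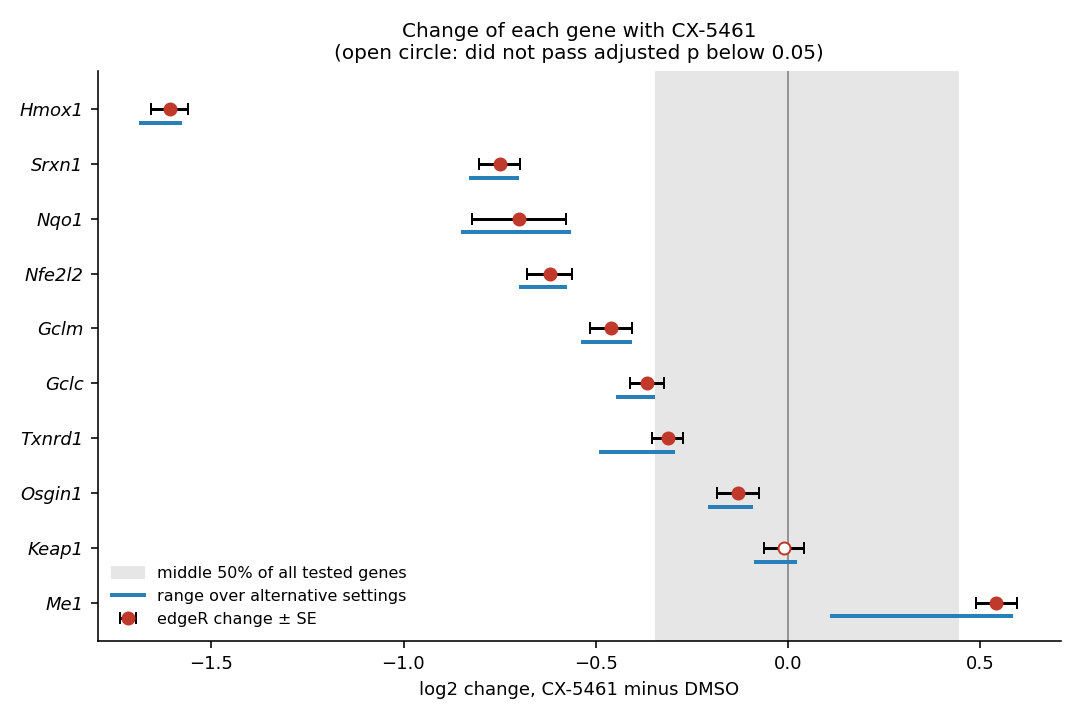
Log2 change of each gene with CX-5461 relative to DMSO (red circles, edgeR estimate with SE as bars), with its range over the alternative settings (blue lines) and the middle 50% of all tested genes (grey band, -0.34 to 0.44). Hmox1 stands furthest to the left at -1.61, Keap1 (open circle) lies at -0.01, and Me1 is the one called gene to the right.

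The promoter windows were searched for core letters of an antioxidant response element next to the start of these genes. RefSeq windows (build GRCm38.p6) of 250 bases before and 50 bases after an annotated start were found for 8 of the 10 genes, 11 windows in all, and Hmox1 and Gclc had none. The core TGACNNNGC, searched on both strands, was in a window of 5 of these 8 genes and in 14.0% of the 27025 genes with a window (12.4% of all 32851 windows). The letters TGAGTCA, which read TGACTCA on the other strand and overlap the core where TGACTCAGC occurs, were in 5.2% of all windows. Capitals mark both. Positions count from the annotated start as 0 and give the leftmost base as printed. The 4 windows shown are that of Me1, which rose, that of Srxn1, which fell, and those of Gclm and Nfe2l2.
Me1 (chr9:86695865-86696164, minus strand): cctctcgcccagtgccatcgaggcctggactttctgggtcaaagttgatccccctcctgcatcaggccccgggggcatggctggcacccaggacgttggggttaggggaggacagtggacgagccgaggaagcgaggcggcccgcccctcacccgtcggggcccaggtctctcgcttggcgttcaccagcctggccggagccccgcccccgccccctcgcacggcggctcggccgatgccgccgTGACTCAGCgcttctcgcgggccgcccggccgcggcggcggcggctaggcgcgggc
Srxn1 (chr2:152105274-152105573, plus strand): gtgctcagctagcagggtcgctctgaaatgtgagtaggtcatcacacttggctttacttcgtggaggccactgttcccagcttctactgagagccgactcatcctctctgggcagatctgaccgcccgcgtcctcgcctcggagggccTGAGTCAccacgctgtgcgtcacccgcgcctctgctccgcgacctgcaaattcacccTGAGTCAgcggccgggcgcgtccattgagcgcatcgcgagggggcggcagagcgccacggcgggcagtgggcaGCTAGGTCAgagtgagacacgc
Gclm (chr3:122245307-122245606, plus strand): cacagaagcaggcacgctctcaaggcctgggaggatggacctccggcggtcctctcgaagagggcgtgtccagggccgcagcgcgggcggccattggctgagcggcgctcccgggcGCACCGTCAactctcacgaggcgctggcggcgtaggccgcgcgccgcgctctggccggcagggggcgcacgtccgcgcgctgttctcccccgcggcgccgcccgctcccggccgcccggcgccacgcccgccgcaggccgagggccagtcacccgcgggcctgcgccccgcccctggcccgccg
Nfe2l2 (chr2:75704614-75704913, minus strand): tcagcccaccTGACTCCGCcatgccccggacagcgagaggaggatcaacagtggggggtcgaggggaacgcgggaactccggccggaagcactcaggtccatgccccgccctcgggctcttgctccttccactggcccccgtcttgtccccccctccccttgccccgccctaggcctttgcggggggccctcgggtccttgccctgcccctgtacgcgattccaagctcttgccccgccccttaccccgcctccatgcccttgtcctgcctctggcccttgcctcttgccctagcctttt

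Me1 held TGACTCAGC at position -6, letters found in 0.454% of all windows. Srxn1 held TGACCTAGC on the opposite strand at position 28 and TGAGTCA at positions -102 and -45. Gclm held TGACGGTGC on the opposite strand at -134, and Nfe2l2 held TGACTCCGC at -240. Of the windows not printed, 1 of 3 for Txnrd1 held TGACAAAGC on the opposite strand at -92, and that of Osgin1 held TGAGTCA at -97. In Osgin1 it lies on the opposite strand and is followed by GC there. The TGAGTCA of Srxn1 at -45 is followed by GC too, on the printed strand. Neither set of letters was in the windows of Keap1 and Nqo1 or in the other window of Me1. A match describes letters in a window and does not show that a factor binds there. A missing match does not show a missing element, as the windows reach only 250 bases before a start.

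Among the regulators, the transcript of NRF2 fell and that of its inhibitor did not pass. Nfe2l2 (chromosome 2, 75675513 to 75704641, GRCm38) stood at 155.4, 180.9 and 158.0 CPM with CX-5461 and at 246.0, 244.6 and 268.8 CPM with DMSO. The groups did not overlap, and CX-5461 replicate 2 was the highest of its group. The change was -0.62 ± 0.06 (log2, SE, n = 3 per group, adjusted p = 1.429e-07), or 65.0% of the DMSO level. Keap1 (chromosome 9, 21229730 to 21239361) stood at 72.4, 77.6 and 78.1 CPM with CX-5461 and at 79.1, 77.0 and 73.4 CPM with DMSO. These values overlapped, with a change of -0.01 ± 0.05 (adjusted p = 0.8622), whose sign turned in 3 of the alternatives. An antisense gene overlaps Keap1 in the annotation, and whether the counting used strand is not given.

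Hmox1 (chromosome 8, 75093621 to 75100589), which encodes the enzyme that splits heme into biliverdin, carbon monoxide and iron, stood out by size. Its level was 1882, 2018 and 1822 CPM with CX-5461, against 5831, 5888 and 5724 CPM with DMSO. Every CX-5461 library was far below every DMSO library, and the libraries within each group lay close together. The mean was 1907 ± 100.8 CPM with CX-5461 and 5814 ± 82.9 CPM with DMSO (SD, n = 3 each), a change of -1.61 ± 0.05 (log2, SE, adjusted p = 2.804e-13). This was 3.05-fold lower with CX-5461, and 135 of 12198 tested genes fell further on the log2 scale. The difference between its group means, -3907 CPM, was the largest fall in CPM of any tested gene, and the next was that of the elongation factor gene Eef1a1 (-2349 CPM). Among 157 tested genes with at least 10% of the DMSO level of Hmox1, those that fell at least as much were Hmox1, Ddit3, which encodes CHOP, and the GTP-binding protein gene Gtpbp2. Without CX-5461 replicate 2 these were the same genes, and Hmox1 (-3963 CPM) and Eef1a1 (-2459 CPM) again had the largest falls in CPM.

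Hmox1 was among the most counted genes of the line, most of all with DMSO. It took 0.182%, 0.196% and 0.179% of the counts of the CX-5461 libraries and 0.602%, 0.604% and 0.583% of the DMSO libraries. Exact 95% binomial intervals, which cover counting error only, ran from 0.177% to 0.198% over the CX-5461 libraries and from 0.580% to 0.607% over the DMSO libraries. Its rank by counts was 28, 26 and 27 in the CX-5461 libraries and 5 in each DMSO library. Together the 10 genes took 0.356% to 0.383% of the counts with CX-5461 and 0.844% to 0.849% with DMSO. Without Hmox1 the other 9 took 0.174% to 0.186% with CX-5461 and 0.244% to 0.261% with DMSO. Counts of Hmox1 per count of Nfe2l2 were 11.6 ± 0.479 with CX-5461 and 23.0 ± 1.5 with DMSO (SD, n = 3 each). Those groups did not overlap, with an exact two-sided permutation p of 0.1, the smallest that 3 against 3 allows (0.2 adjusted over the 2 ratios tested). Without CX-5461 replicate 2 the CX-5461 mean was 11.8.

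**Figure D2:**
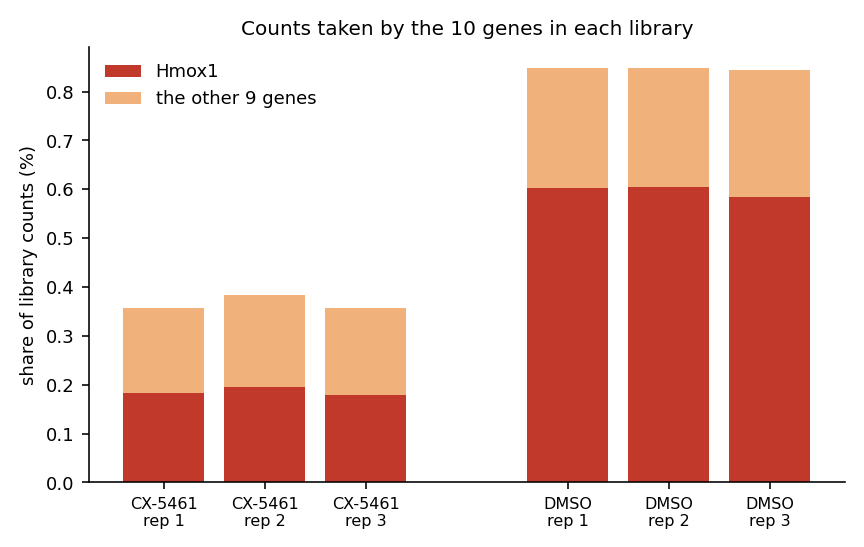
Share of each library's counts (percent) taken by Hmox1 (red) and by the other 9 genes (orange), 1 bar per library with no error bars. The red part is 0.179% to 0.196% in the CX-5461 libraries and 0.583% to 0.604% in the DMSO libraries, and the orange part differs less.

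By the distance used here, the genes closest to Hmox1 over the 6 libraries were Stbd1, Esyt1 and Wfs1. The measure was the distance between log2(CPM + 1) values centred on each gene's mean, which was 0.108 for Stbd1, 0.123 for Esyt1 and 0.166 for Wfs1. Without CX-5461 replicate 2 the closest were Otub2 (0.0803), Nupr1 (0.0937) and Stbd1 (0.104), so the choice of Esyt1 and Wfs1 rests on that library. With 6 libraries in 2 groups this likeness is mostly that of the group difference. Stbd1 fell by 2.05 ± 0.14, Esyt1 by 1.58 ± 0.05 and Wfs1, which encodes the endoplasmic reticulum protein wolframin, by 1.59 ± 0.06 (log2, SE). Stbd1 was low, at 1.95 CPM with CX-5461 and 8.03 CPM with DMSO, so the 1 CPM added in the distance shrank its difference. Its fitted fall was larger than that of Hmox1 (-1.61), and its small distance depends on that added value.

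The genes for both subunits of glutamate-cysteine ligase, which makes the first and rate-limiting step of glutathione synthesis, fell by similar amounts. Gclc, the catalytic subunit (chromosome 9, 77754535 to 77794485), stood at 125.8, 122.2 and 124.9 CPM with CX-5461, against 157.4, 159.2 and 164.6 CPM with DMSO. Gclm, the modifier subunit (chromosome 3, 122245557 to 122270732), stood at 238.4, 253.5 and 225.2 CPM with CX-5461, against 321.0, 313.1 and 353.0 CPM with DMSO. Neither gene's groups overlapped, and the CX-5461 libraries of Gclc lay closest together of the 10 genes (coefficient of variation 1.49%). The change was -0.37 ± 0.04 for Gclc (adjusted p = 1.887e-06) and -0.46 ± 0.05 for Gclm (adjusted p = 1.722e-06). The ratio of Gclc to Gclm counts was 0.522 ± 0.0365 with CX-5461 and 0.488 ± 0.0212 with DMSO (SD, n = 3 each, exact two-sided permutation p = 0.3), and the CX-5461 mean was 0.541 without replicate 2. A processed pseudogene lies within the annotated span of Gclm on the same strand, so reads could be shared.

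Of the thiol-reducing enzymes, both members fell, Srxn1 more than Txnrd1. Srxn1 (chromosome 2, 152105516 to 152111376), sulfiredoxin, which restores over-oxidised peroxiredoxins, stood at 426.2, 470.0 and 417.6 CPM with CX-5461, against 704.6, 717.6 and 787.2 CPM with DMSO. Txnrd1 (chromosome 10, 82833951 to 82897712), the cytosolic selenoprotein that reduces thioredoxin, stood at 490.7, 496.5 and 512.4 CPM with CX-5461, against 615.4, 610.2 and 636.9 CPM with DMSO. The groups were apart for both genes, with the wider gap for Srxn1. Srxn1 changed by -0.75 ± 0.05 (adjusted p = 6.189e-09), or 59.5% of its DMSO level. Txnrd1 changed by -0.31 ± 0.04 (adjusted p = 5.813e-06), or 80.5% of its DMSO level. Another protein-coding gene, Eid3, lies within the span of Txnrd1 on the same strand.

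The remaining targets did not move together. Nqo1 (chromosome 8, 107388225 to 107403206), a quinone reductase, was the least counted, at 7.84, 11.6 and 9.56 CPM with CX-5461 and 14.8, 15.1 and 16.8 CPM with DMSO. It rested on 174 to 201 counts per CX-5461 library and 270 to 313 per DMSO library, and it had the widest relative spread of the 10 with CX-5461 (coefficient of variation 19.3%). Its groups still did not overlap, and it changed by -0.70 ± 0.12 (adjusted p = 9.351e-05).

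Me1 (chromosome 9, 86581371 to 86695953), cytosolic malic enzyme, which makes NADPH and also serves fatty acid synthesis, was the one that rose. It stood at 151.6, 161.7 and 142.4 CPM with CX-5461, against 103.7, 101.7 and 107.6 CPM with DMSO, with every CX-5461 library above every DMSO library. It rose by 0.54 ± 0.05 (adjusted p = 1.83e-07), which is 1.46-fold. Me1 spans 114.6 kb, the longest of the 10 genes. The 1590 tested genes that span over 100 kb had a median log2 change of 0.57, against -0.06 for the other 10543 genes with a known span. In a fit that takes out this trend on gene length, called the gene-span offset here, the change of Me1 was 0.11 and did not pass (adjusted p = 0.06249), while the median of all genes was -0.11. With the trend centred on its median, a setting added after seeing the data, Me1 passed at 0.14 (adjusted p = 0.03023).

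Osgin1 (chromosome 8, 119434124 to 119446256), a growth inhibitor induced by oxidative stress, passed the test by little. It stood at 127.3, 142.3 and 135.5 CPM with CX-5461 and at 150, 138.6 and 154.6 CPM with DMSO, and the groups overlapped through CX-5461 replicate 2 and DMSO replicate 2. Its change was -0.13 ± 0.05 (adjusted p = 0.041). The call was lost without DMSO replicate 1 (-0.12, adjusted p = 0.1117), DMSO replicate 3 (-0.10, 0.1682), CX-5461 replicate 1 (-0.10, 0.1356) or CX-5461 replicate 3 (-0.14, 0.05798).

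**Figure D3:**
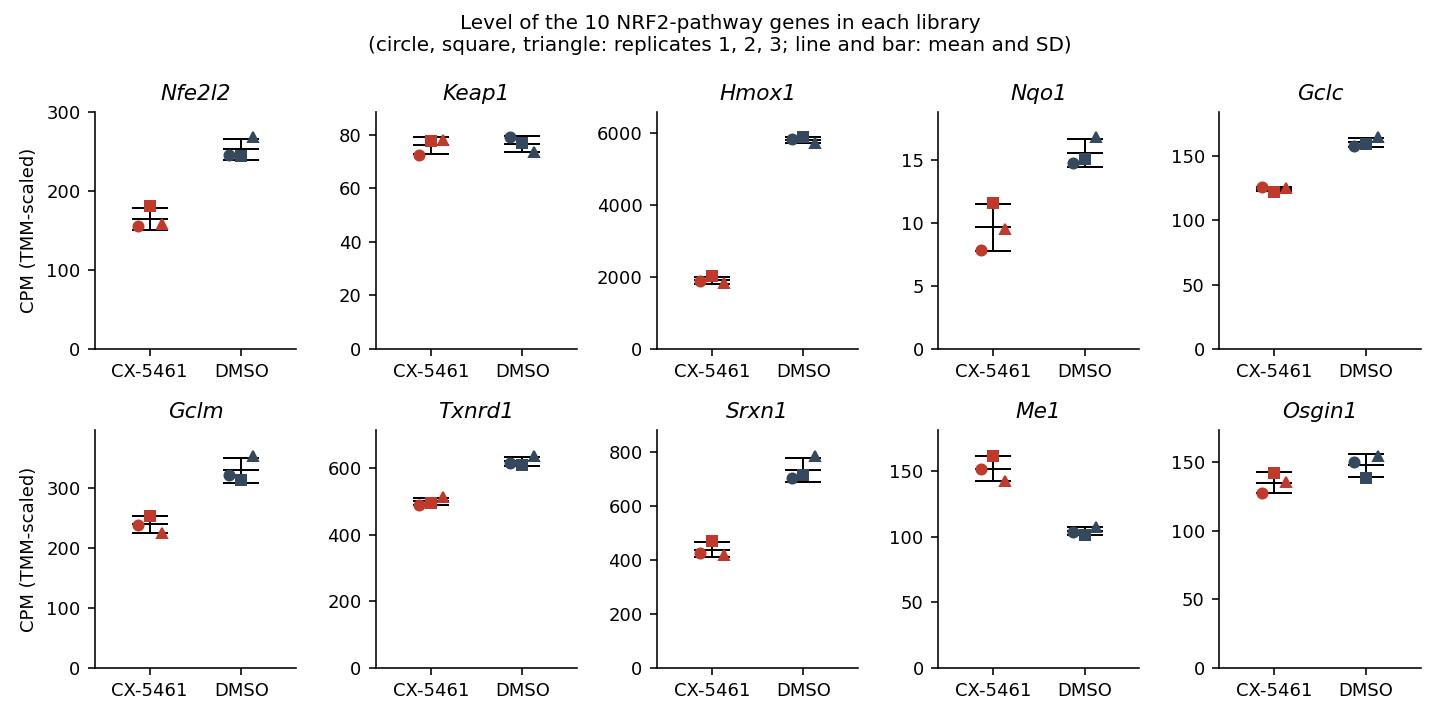
Level of each of the 10 genes in CPM, with 1 panel per gene, CX-5461 (red) left of DMSO (dark), symbols for replicates 1 to 3, and mean and SD as lines. All panels start at 0. Hmox1 averages 1907 CPM with CX-5461 and 5814 CPM with DMSO, Me1 is the panel where CX-5461 is higher, and the groups overlap for Keap1 and Osgin1.

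Levels of different genes were compared as CPM per kb of annotated exons. With CX-5461 the order was Hmox1 (1089 ± 57.6), Srxn1 (155.3 ± 9.96), Txnrd1 (70.5 ± 1.58), Osgin1 (50.5 ± 2.81), Nfe2l2 (43.4 ± 3.70), Me1 (39.5 ± 2.50), Gclm (38 ± 2.25), Gclc (33.0 ± 0.493), Keap1 (16.2 ± 0.667) and Nqo1 (6.21 ± 1.20). With DMSO it was Hmox1 (3321 ± 47.4), Srxn1 (261.2 ± 15.7), Txnrd1 (87.6 ± 2.00), Nfe2l2 (66.7 ± 3.57), Osgin1 (55.3 ± 3.08), Gclm (52.3 ± 3.35), Gclc (42.6 ± 0.988), Me1 (27.1 ± 0.789), Keap1 (16.3 ± 0.613) and Nqo1 (10.0 ± 0.708). The ends of the order were the same in both groups, and the middle was not. With CX-5461 the means of Me1 and Gclm, and of Nfe2l2 and Me1, differed by less than the sum of their SDs, as did those of Osgin1 and Gclm with DMSO. Nfe2l2 stood behind Osgin1 with CX-5461 and ahead of it with DMSO, and Me1 stood above Gclc with CX-5461 and below it with DMSO. Without CX-5461 replicate 2 the order with CX-5461 was the same.

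**Figure D4:**
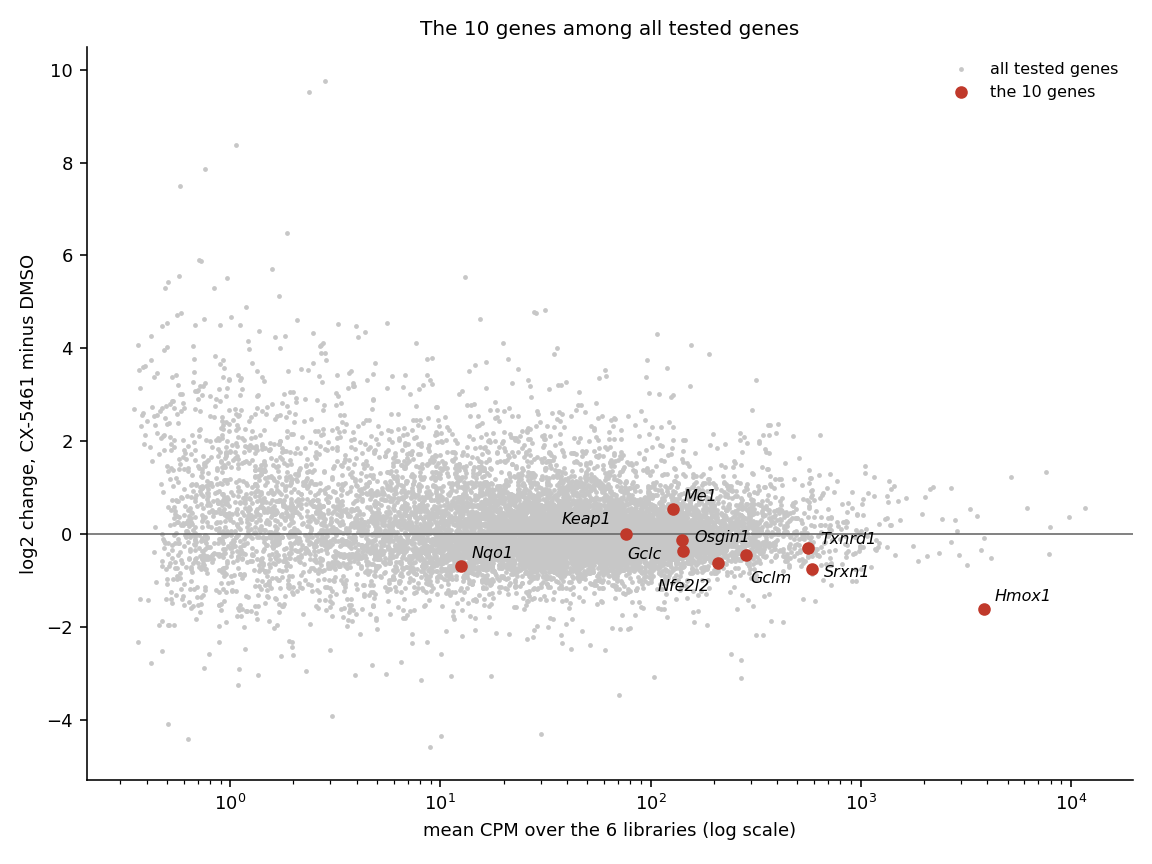
Mean CPM over the 6 libraries (log axis) against the log2 change with CX-5461 for 12198 tested genes (grey) and the 10 genes (red). Hmox1, at a change of -1.61, lies below the other genes of its abundance, while the rest of the 10 sit inside the grey cloud.

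Genes that surround NRF2 were read from lists of partners and of related enzymes. Of 17 tested regulators and partners, 10 rose (58.8%, against 37.2% of all tested genes) and 7 fell (41.2%, against 36.5%), with a median log2 change of 0.21. With the gene-span offset 6 rose and 10 fell, also when it was centred, so the balance of this list turned with that setting. The balance of all 12198 tested genes turned too, from 4538 higher and 4448 lower to 3583 higher and 5454 lower. With the offset centred, 3730 of all tested genes were higher and 5253 lower. The small MAF gene Maff fell by 3.05 ± 0.18, to 0.840 ± 0.109 CPM with CX-5461, against 7.01 ± 0.266 CPM with DMSO. Mafg, another small MAF, fell by 0.75 ± 0.04. Bach1, which represses Hmox1 at the same elements, stood at 63.3, 58.8 and 57.8 CPM with CX-5461, against 81.0, 80.4 and 75.6 CPM with DMSO, and fell by 0.40 ± 0.05 (adjusted p = 7.818e-06). Its relative Bach2 rose by 0.49 ± 0.15 (adjusted p = 0.009565), at 4.36 ± 0.445 CPM with CX-5461 and 3.11 ± 0.265 CPM with DMSO. Bach2 spans 347.3 kb, and it was called lower with the gene-span offset (-0.67, adjusted p = 0.001132). Its adjusted p reached 0.05677 over the alternatives, and Bach2 rested on only 51 to 104 counts per library. The related factor gene Nfe2l1 fell by 0.66 ± 0.04. Sqstm1, the autophagy receptor p62 that binds KEAP1 and is itself an NRF2 target, averaged 2451 ± 8.06 CPM with CX-5461 and 3928 ± 50.7 CPM with DMSO and fell by 0.68 ± 0.04. Mafg, Bach1, Bach2, Nfe2l1 and Sqstm1 were chosen for mention after their values were seen. The largest rise was that of Brca1, at 2.18 ± 0.08, known mainly for DNA repair and listed for its contact with NRF2.

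Of 22 other NRF2 target genes listed, 16 could be tested. With a median of 0.03, 6 were higher, 6 lower and 4 not called. These shares, 37.5% in each direction, were near those of all tested genes (37.2% higher and 36.5% lower). Microsomal epoxide hydrolase Ephx1 rose most, to 818.3 ± 49.8 CPM with CX-5461, against 315.8 ± 21.0 CPM with DMSO (1.37 ± 0.06). Trib3, a pseudokinase gene that ATF4 also drives, fell most, to 124.5 ± 8.09 CPM with CX-5461, against 563.4 ± 4.74 CPM with DMSO (-2.18 ± 0.05). The cystine transporter Slc7a11, chosen after its values were seen and also an ATF4 target, stood at 207.9, 190.0 and 190.0 CPM with CX-5461, against 496.0, 474.7 and 514.1 CPM with DMSO. It fell by 1.34 ± 0.05, and by 2.84 with the gene-span offset. That offset used the outer limits of the annotated gene, 551.1 kb apart, and not the length of any 1 transcript.

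The enzymes of the redox systems were read against the same shares, 37.2% higher and 36.5% lower over all tested genes. Of 20 tested genes of glutathione synthesis and use, 9 were higher (45.0%), 7 lower (35.0%) and 4 not called (median 0.12). Mgst3, a microsomal glutathione transferase, rose by 1.13 ± 0.18 at a low level, 7.92 ± 2.07 CPM with CX-5461 and 3.58 ± 0.292 CPM with DMSO. Chac1, which degrades glutathione and is driven by ATF4, fell by 1.96 ± 0.05. Glutathione reductase Gsr, chosen after its values were seen, was at 82.9 ± 4.25 CPM with CX-5461 and 85.9 ± 4.6 CPM with DMSO (adjusted p = 0.4124), and it passed as lower with the gene-span offset (-0.15, adjusted p = 0.0251, up to 0.873 over alternatives). Of 18 genes of the thioredoxin and peroxiredoxin system, 9 were higher (50%), 5 lower (27.8%) and 4 not called (median 0.18). The methionine sulfoxide reductase gene Msrb3 rose by 1.33 ± 0.13 and the thioredoxin reductase gene Txnrd3 fell by 0.80 ± 0.06. Prdx1, a peroxiredoxin and NRF2 target chosen after its values were seen, rose by 0.34 ± 0.07, to 1499 ± 190.3 CPM with CX-5461, against 1180 ± 72.3 CPM with DMSO. Of 5 superoxide and peroxide enzymes, 2 rose (40.0%) and 3 fell (60.0%, median -0.16), from extracellular superoxide dismutase Sod3 at 1.56 ± 0.11 to catalase Cat at -0.48 ± 0.05.

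Of 14 tested genes of NADPH supply and the pentose phosphate pathway besides Me1, 7 were higher (50%, against 37.2% of all tested genes). Of the rest, 5 were lower (35.7%, against 36.5%) and 2 not called, with a median of 0.11 over the 14. Tkt (-0.22) and Taldo1 (-0.64), which were called lower, and Pgls (0.02), which did not pass, do not make NADPH themselves. These shares therefore do not describe NADPH-producing enzymes alone. The folate enzyme Aldh1l1 rose by 1.85 ± 0.09, and its mitochondrial relative Aldh1l2 fell by 2.19 ± 0.07. G6pdx, the entry enzyme of the pentose phosphate pathway, chosen after its values were seen, fell by 0.48 ± 0.04, to 403.1 ± 10.1 CPM with CX-5461, against 561.3 ± 10.9 CPM with DMSO. Of 15 tested genes of heme breakdown, heme synthesis and ferritin, 5 were higher (33.3%, against 37.2%), 6 lower (40.0%, against 36.5%) and 4 not called (median -0.02). The biliverdin reductase B gene Blvrb fell most, at -0.89 ± 0.07. The biliverdin reductase A gene Blvra, chosen after its values were seen, changed by -0.20 ± 0.06 (adjusted p = 0.00928). The ferritin genes moved apart, with Fth1 higher by 0.38 ± 0.05 and Ftl1 lower by 0.45 ± 0.07 (-0.45). Ferritin genes have processed copies that can share reads, so their levels are uncertain.

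**Figure D5:**
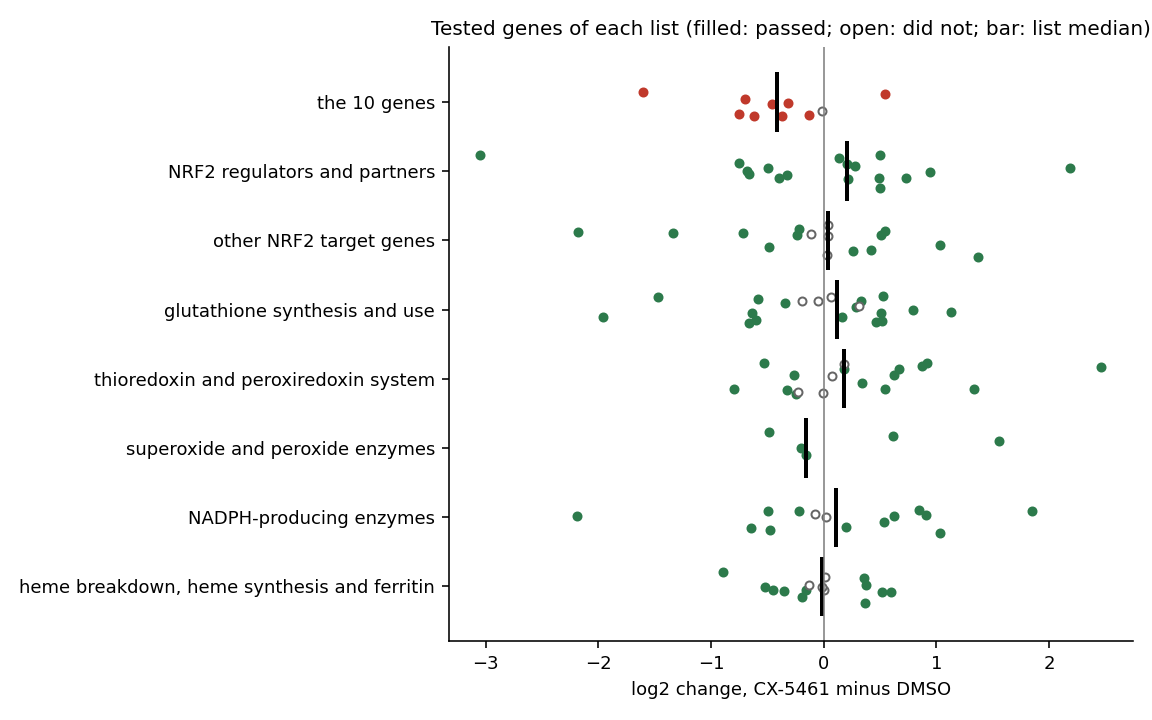
Log2 change with CX-5461 of the tested genes of each list, 1 point per gene, filled where the gene passed, with the list median as a bar; the vertical jitter has no meaning. The median of the 10 genes is -0.41, and those of the other 7 lists lie between -0.16 and 0.21.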

How the data were processed

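The deposited table holds whole-number counts of reads per gene, not normalized by the authors, as its differing column totals show. Per the submitters' processing notes the genome was GRCm38 (mm10). Aligner, counting tool and use of strand were not given in the sources used. The 6 columns were matched to samples by their description labels. Genes passing filterByExpr of edgeR 4.0.16 (minimum count 10), 12198 in all, were scaled by TMM and tested for treatment with the quasi-likelihood F test in R 4.3.3, two-sided, with Benjamini-Hochberg adjustment over all of them. The SE of a change is its size over the root of the F value. Library totals were 17573990 to 22908309 counts. On simulated counts of 12108 genes the test recovered 36 of 50 genes changed 1.25-fold and 47 of 50 changed 2-fold, with 10 false calls of 184. The simulation changed few genes and gave every gene and both groups the same dispersion. In the data 73.7% of tested genes were called, so its rates need not hold here. DESeq2 1.42.0, limma-voom (limma 3.58.1), other scalings and filters, a replicate block, a gene-span offset and each library left out were alternatives. Coordinates, spans and exon lengths come from GENCODE M21 (GRCm38).

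The 10 genes and all lists were chosen with earlier results of these data known. Named besides the 10 genes were, from each list, the called gene with the largest rise and that with the largest fall at 5 CPM or more in the higher group, and the 3 genes closest to Hmox1 over the libraries. 1 gene that this rule names is not reported here.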

Additional observations from a re-analysis of the deposited data

How the results depend on the processing

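Over the alternatives run (scalings, filters, DESeq2, limma-voom, the replicate block, a threshold of 0.01, the gene-span offsets and each library left out), Nfe2l2, Hmox1, Nqo1, Gclc, Gclm, Txnrd1 and Srxn1 stayed lower and called. Hmox1 ran from -1.68 to -1.58 and Nqo1, the least counted, from -0.85 to -0.57. Osgin1 lost its call with upper-quartile factors (-0.12, adjusted p = 0.05694), at the threshold of 0.01 (-0.13), with the centred gene-span offset (-0.12, 0.0546) and in 4 of the 6 fits with a library left out, which ran from -0.177 to -0.095. Me1 did not pass with the gene-span offset (0.114, adjusted p = 0.06249), so 0 of the 10 genes were then called higher in place of 1. Keap1 did not pass in any fit and took the opposite sign with the centred gene-span offset (0.002) and in 2 of the 6 fits with a library left out, which ran from -0.043 to 0.018. Of the regulators and partners, 6 in place of 10 were called higher and 10 in place of 7 lower with the gene-span offset and with it centred, and Bach2 took the opposite sign (-0.672 and -0.65). That offset shifted the median of all genes to -0.11 and their calls to 3583 higher and 5454 lower, library totals to 3989 higher and 5109 lower, against 4538 higher and 4448 lower. The span trend itself had a median of 0.021, and with it centred the median of all genes was still -0.089. What caused these shifts and each lost call was not tested. Same-numbered libraries of the groups did not deviate together (r of 0.037, -0.002 and -0.039), so the numbers were not taken as pairs. With the replicate block 4536 genes were higher and 4464 lower, and 1 and 8 of the 10 genes. Without CX-5461 replicate 2, a setting added after seeing the data for these values, the largest falls in CPM and the order of levels were the same, and 1 of the 3 genes closest to Hmox1 was. Depth limits Nqo1, the least counted of the 10, at 174 to 313 counts per library.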

Other observations

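Within each group the genes tended to peak in the same library. In the CX-5461 group, 7 of the 10 genes (Nfe2l2, Hmox1, Nqo1, Gclm, Srxn1, Me1 and Osgin1) were highest in replicate 2, the library that lay apart, which was highest for 38.1% of all tested genes. In the DMSO group, 8 of the 10 (all but Keap1 and Hmox1) were highest in replicate 3, which was highest for 38.5% of all tested genes. These counts were made after seeing the data and were not tested.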
